A study of Mus musculus with 12 samples.

Results

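Mast cells are tissue-resident immune cells that store histamine and proteases in granules and release them when IgE on their surface is cross-linked. Their granules hold carboxypeptidase A3, chymases and tryptases, the alpha and beta chains of the high-affinity IgE receptor (FceRI) sit on their surface, and histidine decarboxylase makes their histamine. In mice such cells lie in skin, in connective tissue around muscle and vessels, and in mucosa, and they also gather in and around many solid tumours. The 8 genes described here were chosen by symbol from the 55536 genes of the count table and cover these roles. They are the proteases Cpa3, Cma1, Mcpt4, Tpsb2 and Tpsab1, the IgE receptor chains Fcer1a and Ms4a2, and the histamine enzyme Hdc.

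RNA was sequenced from 12 mouse samples. The 5 translocation tumours came from mice whose genotype is given as HprtCre with loxP sites in Ewsr1 and in Atf1, so that Cre from the Hprt locus, which is active in most tissues, can join the endogenous genes. The 6 Rosa26 tumours came from mice that carry Rosa26-LSL-EWSR1-ATF1, a fusion transgene behind a Cre-removable stop, and how Cre was supplied is not given in the labels. The reference tissue is 1 library of skeletal muscle labelled WT. EWSR1-ATF1 is the fusion protein of clear cell sarcoma, all tumours arose in the animals and received no drug, and neither age nor sex of the mice is given in the labels. Whole tumours were frozen, so fewer mast cells and less RNA per mast cell cannot be told apart. The titles of translocation tumours 2 and 5 differ by a final letter, those of Rosa26 tumours 5 and 6 by a final digit, and those of translocation tumour 1 and the muscle begin with the same number. The labels do not say whether libraries came from separate animals, and a p-value here speaks of the scatter among these libraries, part of which could be technical.

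Depth ran from 2.96 to 21.2 M counts in translocation tumours and from 6.82 to 21.5 M in Rosa26 tumours, and the muscle had 25037628 counts. Genes that hold ribosomal sequence took 37.8% of the counts of translocation tumour 2 and 30.0% of those of Rosa26 tumour 4, the shallowest libraries of each genotype, against 1.34% to 7.38% in the other tumours. A set of 10 skeletal muscle fibre genes took 18.3% of counts in the muscle library, as its label says, and 8.23%, 0.482% and 0.484% in Rosa26 tumours 1 and 3 and translocation tumour 2, against at most 0.0192% in the other tumours. Levels below are in CPM, a gene's reads divided by the scaled depth of its library, on a single scale over all 12 libraries. The scaling factor of the muscle was 0.409, against 0.771 to 1.26 in the tumours, which raises muscle CPM above what its counts over the library total would give. Intervals are exact 95% Poisson intervals and cover counting error only, as does the limit of 3 counts that is set against a count of 0.

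The promoter sequences show what the genes share and where they differ before any level is considered. Of the 8 genes, 6 matched RefSeq's promoter table (GRCm38.p6), and 4 of these are printed because they stand for the granule proteases, the IgE receptor and the enzyme. All lie on the minus strand and give the 250 bases before the RefSeq transcription start, 5′ to 3′. Capitals mark GATAA and CATGTG, in either case read on both strands. GATAA is one form of the GATA core that GATA factors such as the mast cell regulator GATA2 bind. CATGTG is an E-box that MITF and its relatives bind.
Cpa3 (chr3:20242182-20242431): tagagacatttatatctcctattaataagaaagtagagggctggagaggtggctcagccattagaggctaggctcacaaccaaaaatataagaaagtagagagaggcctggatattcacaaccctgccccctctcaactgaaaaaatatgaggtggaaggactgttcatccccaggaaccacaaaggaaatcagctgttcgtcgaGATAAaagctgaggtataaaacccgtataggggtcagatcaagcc
Mcpt4 (chr14:56062311-56062560): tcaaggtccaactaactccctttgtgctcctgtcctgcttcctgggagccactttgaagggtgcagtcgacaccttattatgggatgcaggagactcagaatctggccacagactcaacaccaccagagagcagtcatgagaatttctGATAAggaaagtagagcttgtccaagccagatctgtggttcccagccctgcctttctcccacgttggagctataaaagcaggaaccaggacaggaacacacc
Fcer1a (chr1:173227230-173227479): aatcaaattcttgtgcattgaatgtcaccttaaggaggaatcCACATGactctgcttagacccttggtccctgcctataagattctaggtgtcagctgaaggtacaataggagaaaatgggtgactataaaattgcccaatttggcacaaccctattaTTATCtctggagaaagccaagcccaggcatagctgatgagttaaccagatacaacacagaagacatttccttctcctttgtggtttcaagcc
Hdc (chr2:126618679-126618928): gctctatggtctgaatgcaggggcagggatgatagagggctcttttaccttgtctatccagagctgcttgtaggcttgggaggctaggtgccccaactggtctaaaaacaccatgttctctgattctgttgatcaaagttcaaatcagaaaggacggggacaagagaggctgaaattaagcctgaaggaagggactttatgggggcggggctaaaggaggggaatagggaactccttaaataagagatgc

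GATAA was found in 5 of the 6 promoters, at position -45 from the start in Cpa3, -194 in Cma1, -102 in Mcpt4 and -92 in Fcer1a, and 3 times in Ms4a2. The Hdc window held none, but it lies inside the span that GENCODE gives for Hdc, which reaches 126619299. Other letters that GATA factors may bind, such as GATAG, were not searched, and the Hdc window printed above does hold GATAG. Of 32851 mouse promoter windows of the same length, 22.6% held GATAA. The E-box CATGTG was found in 1 of the 6, in Fcer1a, and in 12.3% of all windows, and the palindromic E-box CACGTG in 0 of the 6 and in 6.02% of all windows. These are letter matches, and the 2 motif families do not overlap each other in the windows shown.

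Across the 11 tumours, most reads of 7 of the 8 genes lay in 2 libraries. The 7 genes other than Hdc had 29 counts in all over the 5 translocation tumours and 728 over the 6 Rosa26 tumours. Of the 728, Rosa26 tumours 1 and 3 held 679 and the other 4 held 49. Summed over the 7 genes, the level was 0.959, 1.75, 0.0811, 0.673 and 0 CPM in translocation tumours 1 to 5, against 20.0, 0.394, 13.6, 0.35, 0.383 and 1.57 CPM in Rosa26 tumours 1 to 6. The muscle had 2.73 CPM. Rosa26 tumours 2, 4, 5 and 6 lay within the range of the translocation tumours, so that the genotypes overlapped. In the translocation tumours 22 of the 35 gene-by-library counts were 0.

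**Figure D1:**
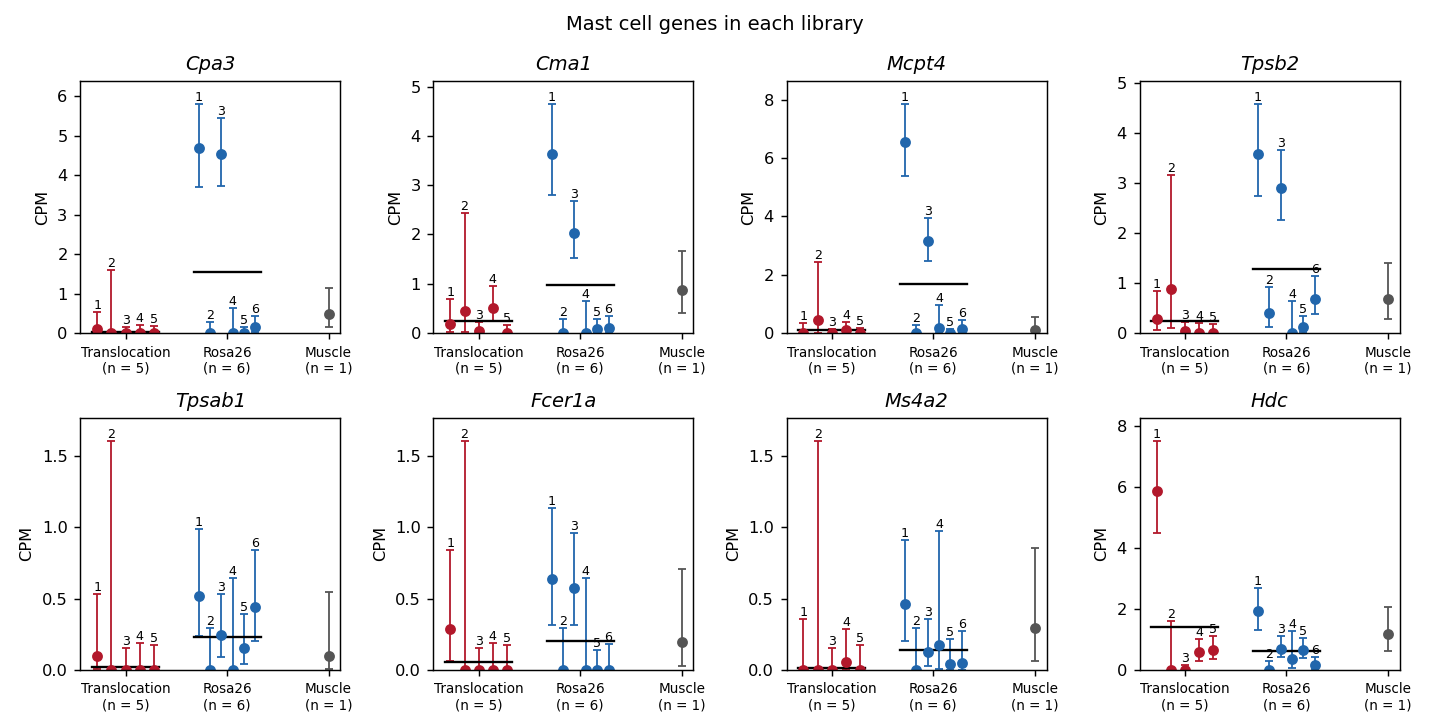
Level of each gene in CPM (linear axis, scaled over 12 libraries) in 5 translocation tumours, 6 Rosa26 tumours and 1 muscle. Points are libraries, numbered within their group, bars are exact 95% Poisson intervals and horizontal lines are group means. Rosa26 tumours 1 and 3 stand above the other tumours for Cpa3, Cma1, Mcpt4 and Tpsb2, and translocation tumour 1 is highest for Hdc.

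Cpa3 encodes carboxypeptidase A3, an exopeptidase of mast cell granules (chromosome 3, 20215620 to 20242181, minus strand, GRCm38). It had 0.0959 CPM in translocation tumour 1, from 1 count, and none in the other 4 translocation tumours. In Rosa26 tumours 1 to 6 it had 4.68, 0, 4.53, 0, 0 and 0.147 CPM, from 81, 0, 111, 0, 0 and 3 counts. The muscle had 0.488 CPM from 5 counts. Rosa26 tumours 1 and 3 thus held 41.3% and 56.6% of all Cpa3 counts of the tumours, and 3 Rosa26 tumours had no count, as 4 translocation tumours had none. The counts of 0 allow up to 0.122 to 1.31 CPM in the translocation tumours, the highest limit being that of the shallow translocation tumour 2, and all of these limits lie under the levels of Rosa26 tumours 1 and 3. Pooled over each genotype the rate ratio, translocation over Rosa26, was 0.007, with a counting interval of 0.000176 to 0.0394 that leaves out the spread between tumours. With that spread, the mean difference on log2 CPM (prior count 2) was -1.78 and the two-sided exact permutation test gave p = 0.227, against a smallest possible p of 0.002165 over 462 splits.

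Cma1 and Mcpt4 encode mast cell chymase-family proteases of connective tissue mast cells, and both lie in the protease cluster of chromosome 14 (Cma1 at 55941451 to 55944675, Mcpt4 at 56059629 to 56062313, both on the minus strand). Cma1 had 0.192, 0.438, 0.0406, 0.518 and 0 CPM in translocation tumours 1 to 5, against 3.64, 0, 2.04, 0, 0.0766 and 0.0982 CPM in Rosa26 tumours 1 to 6 and 0.879 CPM in muscle. Translocation tumours 1, 2 and 4 lay above Rosa26 tumours 2, 4, 5 and 6. Their counts were 2, 1 and 10, against 0, 0, 2 and 2. Of these tumours, only translocation tumour 4 was above its limit of 3 counts. On the 12-library scale only Rosa26 tumours 1 and 3 exceeded the muscle. Translocation tumour 4 and the muscle had overlapping counting intervals (0.248 to 0.952 and 0.402 to 1.67 CPM). Over library totals their order was reversed, with 10 counts among 16586565 in that tumour and 9 among 25037628 in the muscle. Mcpt4 had 0, 0.438, 0, 0.104 and 0 CPM in translocation tumours 1 to 5, against 6.53, 0, 3.14, 0.175, 0 and 0.147 CPM in Rosa26 tumours 1 to 6 and 0.0976 CPM, 1 count, in muscle. Mcpt4 was the most abundant of the 8 per length in Rosa26 tumour 1, at 5.89 CPM per kb of exon, ahead of Cma1 at 3.34 and Cpa3 at 3.08. The mean differences on log2 CPM were -0.47 for Cma1 and -1.53 for Mcpt4, and the exact permutation test gave p = 0.660 and p = 0.271. The Cma1 difference was 0.158 without Rosa26 tumour 1 and 0.003 without Rosa26 tumour 3, so its sign rested on either library. Of the 50-base windows of their transcripts, 5.38% for Cma1 and 5.48% for Mcpt4 also occur in other genes, so a small part of their counts could be shared with Gm48934, or with Cma2 and Mcpt9.

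Tpsb2 and Tpsab1 encode the granule tryptases and lie close together on chromosome 17 (Tpsb2 at 25366305 to 25369098 on the plus strand, Tpsab1 at 25343245 to 25345562 on the minus strand). Tpsb2 had 0.288, 0.875, 0.0406, 0 and 0 CPM in translocation tumours 1 to 5, against 3.58, 0.394, 2.90, 0, 0.115 and 0.688 CPM in Rosa26 tumours 1 to 6 and 0.683 CPM in muscle. Again Rosa26 tumours 1 and 3 were the highest, and translocation tumour 2, at 2 counts, came next. Tpsab1 had 1 count in translocation tumour 1 and none in the other 4, and 9, 0, 6, 0, 4 and 9 counts in Rosa26 tumours 1 to 6, with 1 in muscle. It was the only one of the 7 whose counts in Rosa26 tumour 6 equalled those in Rosa26 tumour 1. Its level was 0.0959 CPM in translocation tumour 1, against 0.520, 0.245, 0.153 and 0.442 CPM in the 4 Rosa26 tumours with counts, and all 4 exceeded every translocation tumour. The mean differences were -1.50 for Tpsb2 (exact permutation p = 0.188) and -1.06 for Tpsab1 (exact permutation p = 0.0866). The Tpsab1 difference reached p = 0.0476 by the exact test when Rosa26 tumour 2 or Rosa26 tumour 4 was left out, with no adjustment over the 8 genes. RefSeq's gene table lists Tpsab1 as a transcribed pseudogene, while GENCODE lists it as protein-coding.

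Fcer1a encodes the chain of the receptor that binds IgE (chromosome 1, 173221284 to 173227214, minus strand), and Ms4a2 the chain that amplifies its signal (chromosome 19, 11615523 to 11623719, minus strand). Fcer1a had 3 counts in translocation tumour 1 and none in the other 4, and 11 and 14 counts in Rosa26 tumours 1 and 3 with none in the other 4. Its levels were 0.288 CPM in translocation tumour 1, against 0.635 and 0.572 CPM in Rosa26 tumours 1 and 3, with overlapping counting intervals, and 0.195 CPM in muscle. Ms4a2 had 1 count in translocation tumour 4 and none in the other 4, against 8, 0, 3, 1, 1 and 1 counts in Rosa26 tumours 1 to 6 and 3 in muscle. Counts of this size give the presence of a few molecules and little more. The mean differences were -0.50 for Fcer1a (exact permutation p = 0.455) and -0.81 for Ms4a2 (exact permutation p = 0.0758). The Ms4a2 difference had p = 0.0238 by the exact test without Rosa26 tumour 2. That tumour had no Ms4a2 count, and this p was not adjusted over the 8 genes or the alternatives.

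Hdc encodes histidine decarboxylase, which turns histidine into histamine in mast cells and also in basophils and other myeloid cells (chromosome 2, 126593667 to 126619299, minus strand). It did not follow the other 7 genes. Hdc had 5.85, 0, 0, 0.570 and 0.651 CPM in translocation tumours 1 to 5, from 61, 0, 0, 11 and 14 counts. In Rosa26 tumours 1 to 6 it had 1.91, 0, 0.694, 0.350, 0.651 and 0.147 CPM, from 33, 0, 17, 2, 17 and 3 counts, and the muscle had 1.17 CPM from 12 counts. Its highest library was translocation tumour 1, where the other 7 genes together had 10 counts, whereas in Rosa26 tumour 1 the other 7 had 347 counts beside 33 of Hdc. Translocation tumour 5 had 14 Hdc counts and none of the other 7 genes. Hdc was the only one of the 8 with enough counts to pass the filter on low values in the genotype comparison, where it had a log2 fold change of 1.24 ± 1.19 (SE), translocation over Rosa26, and an adjusted p of 0.553 (edgeR, quasi-likelihood, adjusted over all genes by the Benjamini-Hochberg method). The fold change was -0.825 without translocation tumour 1. On log2 CPM the mean difference was 0.084, and the exact permutation test gave p = 0.955.

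In that comparison 460 of 17021 genes, or 2.7%, passed an adjusted p of 0.05 in edgeR, and the single gene of the 8 that was tested did not, also at an unadjusted p of 0.05 and with DESeq2's Wald test. Leaving out one tumour at a time moved the 460 to between 63, without Rosa26 tumour 3, and 744, without translocation tumour 5. With no filter on low counts all 8 genes were tested among 36256, and 7 had a negative fold change, translocation over Rosa26. None of the 8 passed, beside 327 of the 36256 genes, with adjusted p from 0.144 for Cpa3 to 0.558 for Hdc. In that edgeR fit 5 of the 8 had an unadjusted p under 0.05. For this and the later counts at an unadjusted p, the share over all genes is not given. None of these counts can therefore be read as an excess. The groups did not separate fully for any of the 8 genes, and the share of all genes that did is not given. Fitted fold changes of genes with so many counts of 0 depend on the prior count, and none is given for the other 7 genes between genotypes.

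**Figure D2:**
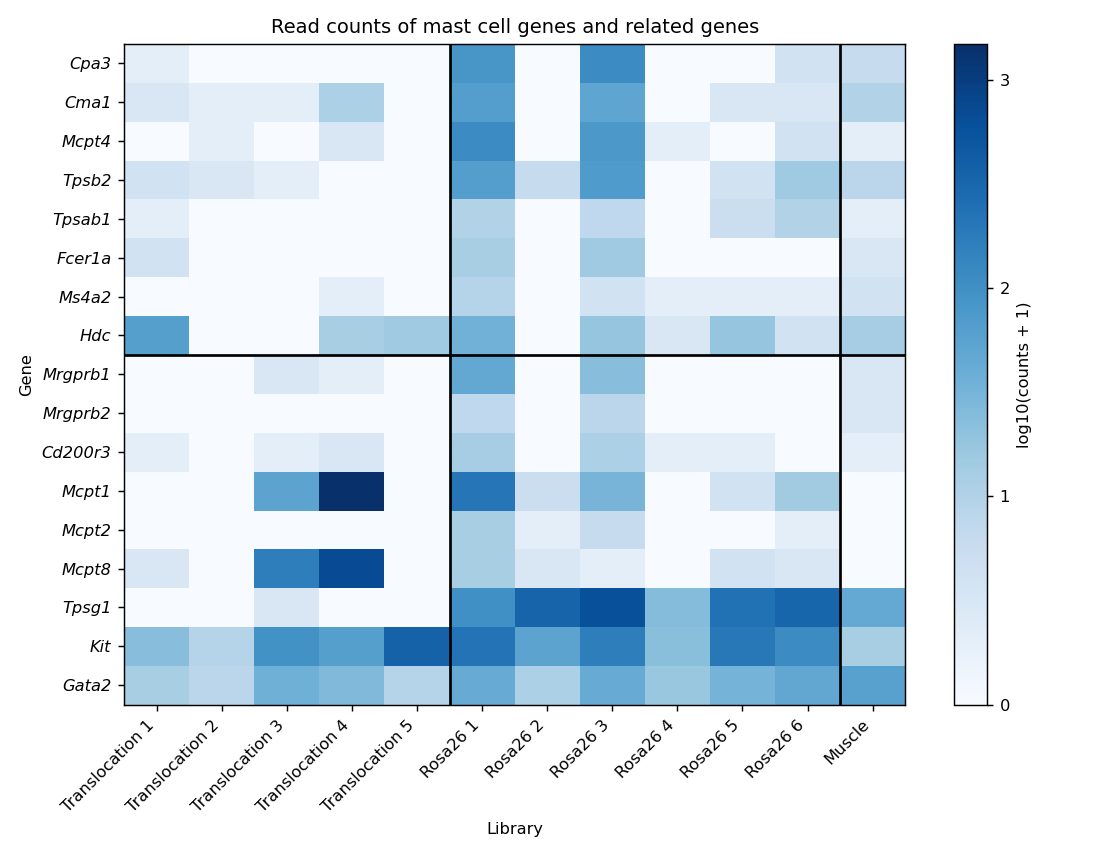
Read counts, as log10(counts + 1), of the 8 mast cell genes (above the horizontal line) and 9 related genes in the 5 translocation tumours, 6 Rosa26 tumours and the muscle (vertical lines separate the groups). Rosa26 tumours 1 and 3 have counts for every one of the 8 genes and for Mrgprb1 and Mrgprb2, Mcpt1 and Mcpt8 are highest in translocation tumour 4, and Tpsg1 has counts in every Rosa26 tumour.

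Among the tumours, only Rosa26 tumours 1 and 3 had counts for all 8 genes, and the genes' order differed between them. Of the 347 counts of the 7 genes in Rosa26 tumour 1, Mcpt4 made up 32.6% (exact 95% binomial interval 27.7% to 37.8%), Cpa3 23.3% (19.0% to 28.2%), Cma1 18.2% and Tpsb2 17.9%. Of the 332 in Rosa26 tumour 3, Cpa3 made up 33.4% (28.4% to 38.8%), Mcpt4 23.2% (18.8% to 28.1%), Tpsb2 21.4% and Cma1 15.1%. Cpa3 and Mcpt4 therefore changed places in the order, with intervals that overlapped only slightly for Mcpt4 and did not overlap for Cpa3. Fcer1a made up 3.17% in Rosa26 tumour 1 and 4.22% in Rosa26 tumour 3, and Ms4a2 2.31% and 0.904%. Each library is 1 sample, so these intervals cover the counting of reads in it and not variation between tumours.

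**Figure D3:**
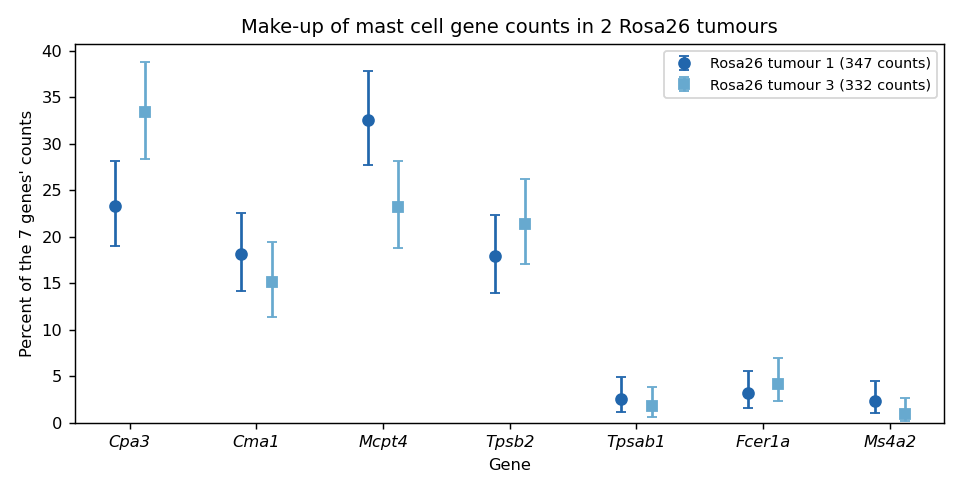
Share of each gene, in percent, among the counts of the 7 mast cell genes without Hdc in Rosa26 tumour 1 (347 counts) and Rosa26 tumour 3 (332 counts). Bars are exact 95% binomial intervals, and Mcpt4 leads in Rosa26 tumour 1 while Cpa3 leads in Rosa26 tumour 3.

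Markers of skeletal muscle were also high in Rosa26 tumours 1 and 3 and in translocation tumour 2, and those of fat in Rosa26 tumour 1. The summed level of 10 skeletal muscle fibre genes was 5.44 to 190 CPM in translocation tumours 1, 3, 4 and 5 and 6270 CPM in translocation tumour 2, against 69300 and 4010 CPM in Rosa26 tumours 1 and 3, 12.8 to 71.6 CPM in the other 4 Rosa26 tumours and 446000 CPM in the muscle. The list of 10 adipocyte genes summed to 94.2 and 55.6 CPM in translocation tumours 1 and 2 and lay under these values in the other 3, with 10.9 CPM the lowest, against 608, 12.2, 57.5, 20.8, 32.4 and 15.3 CPM in Rosa26 tumours 1 to 6 and 1320 CPM in the muscle. Rosa26 tumour 1 was the highest tumour by this sum, while Rosa26 tumour 3 lay below translocation tumour 1 and close to translocation tumour 2. Single genes weighed heavily in it. Plin4 gave 1134 CPM of it in the muscle, and Fabp4 gave 66.7 CPM in translocation tumour 1 and 24.2 CPM in Rosa26 tumour 3. All 10 adipocyte genes had a count in Rosa26 tumours 1 and 3, and 4 to 7 had one in each other tumour. The adipocyte hormone gene Adipoq, named after its values were seen, had 3 counts in translocation tumour 2 and 0 in the other 4, against 714, 0, 38, 0, 1 and 0 in Rosa26 tumours 1 to 6 and 11 in the muscle. Rosa26 tumour 1 exceeded Rosa26 tumour 3 by far more for the muscle list than for the 7 mast cell genes. Translocation tumour 2 had as large a share of muscle counts as Rosa26 tumour 3. Its 7 mast cell genes summed to 1.75 CPM, the highest of the translocation tumours though from 4 counts, against 13.6 CPM in Rosa26 tumour 3. Its Cpa3 count was 0, which allows up to 1.31 CPM against 4.53 CPM in Rosa26 tumour 3. In the muscle library itself the 7 genes had 28 counts among 25037628, against 347 among 14592730 in Rosa26 tumour 1. Their part in the mast cell counts was not tested. Markers of T and NK cells had a summed level of 2.51 to 23.2 CPM in translocation tumours and of 7.65 to 90.6 CPM in Rosa26 tumours, highest in Rosa26 tumour 1 but at only 17.3 CPM in Rosa26 tumour 3.

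**Figure D4:**
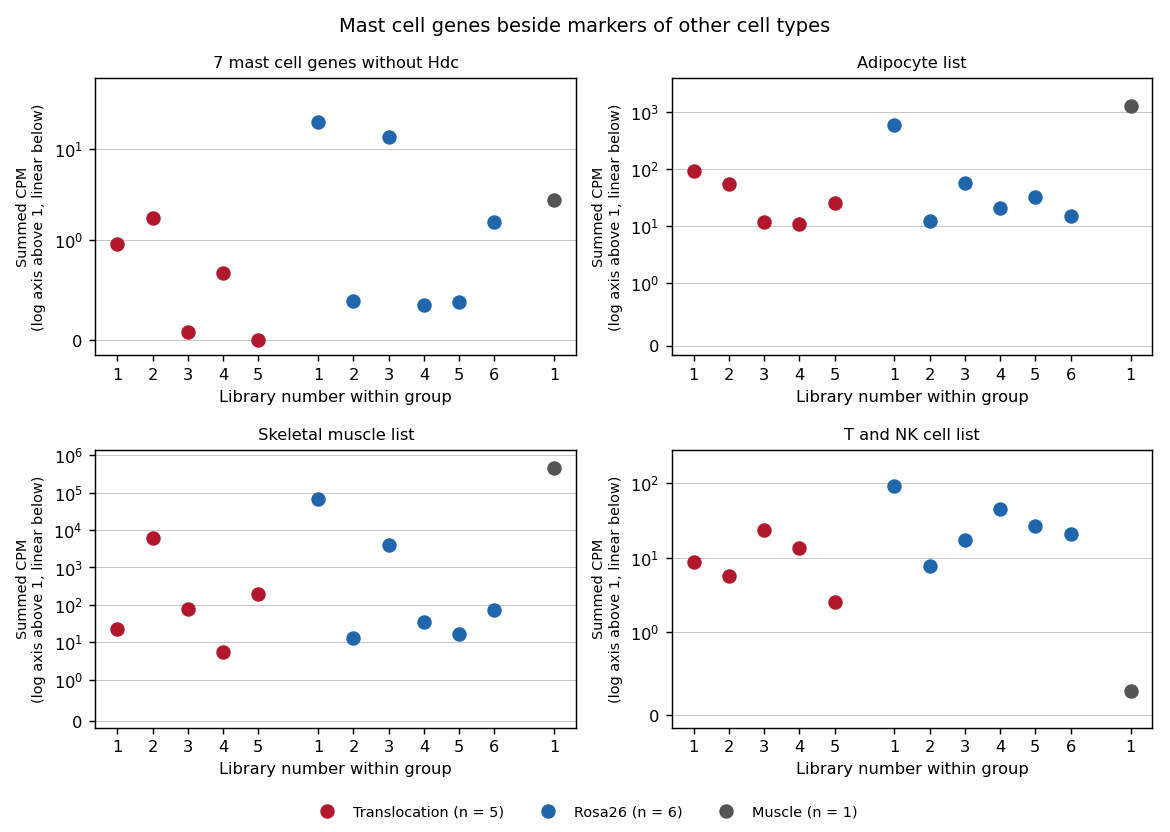
Summed CPM (log axis above 1, linear below) of the 7 mast cell genes without Hdc, of 10 adipocyte genes, of 10 skeletal muscle genes and of 10 T and NK cell genes in each library, numbered within its group. Rosa26 tumours 1 and 3 are highest among the tumours for the mast cell genes, Rosa26 tumour 1 is highest for the adipocyte genes while Rosa26 tumour 3 is not second, and translocation tumour 2 exceeds Rosa26 tumour 3 for the muscle genes.

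Skeletal muscle, the single tissue here that is not a tumour, has resident mast cells of its own. The muscle had counts for all 8 genes, 40 in total, of which Hdc had 12, Cma1 9, Tpsb2 7 and Cpa3 5. In the fit of all 12 libraries 2753 of 22184 genes, or 12.4%, differed between translocation tumours and muscle, and 3560, or 16%, between Rosa26 tumours and muscle, at an adjusted p of 0.05 in edgeR. Of the 8 genes 7 were tested, Ms4a2 being filtered out, and 0 passed in either comparison, nor did any have an unadjusted p under 0.05 in edgeR or in DESeq2. Translocation tumours over muscle, 6 of the 7 had a negative log2 fold change, among them Cpa3 at -4.48 ± 2.68 (SE, edgeR adjusted p = 0.283), Tpsb2 at -2.38 and Cma1 at -2.05, while Hdc stood at 0.31. Rosa26 tumours over muscle, 6 of the 7 had a positive one, with Mcpt4 at 4.01 ± 3.55 (edgeR adjusted p = 0.436), Cpa3 at 1.69 and Tpsab1 at 1.23, while Hdc stood at -0.87. These fitted values also depend on the prior count where most libraries are at 0, as for Cpa3 and Tpsab1 in translocation tumours, and are not sizes to rely on. Both comparisons share the single muscle library, whose spread was assumed to be that of the tumours. The median over the 7 genes was -2.05 for translocation tumours and 0.92 for Rosa26 tumours, beside 0.74 and 0.64 over all genes tested. In Rosa26 tumours over muscle, Cma1 and Fcer1a turned to -0.88 and -0.55 without Rosa26 tumour 1 and to -0.17 and -0.51 without Rosa26 tumour 3. Hdc turned to -1.72 in translocation tumours over muscle without translocation tumour 1.

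Among the other granule proteases, Mcpt1 and Mcpt8 were highest in translocation tumour 4 and Tpsg1 in Rosa26 tumour 2, while Mcpt2 was highest in Rosa26 tumours 1 and 3. Mcpt1 and Mcpt2 are proteases of mucosal mast cells. Mcpt1 had 0, 0, 2.15, 77.0 and 0 CPM in translocation tumours 1 to 5, against 11.9, 0.316, 1.23, 0, 0.115 and 0.638 CPM in Rosa26 tumours 1 to 6 and no count in muscle. Translocation tumour 4, with 1487 Mcpt1 counts, also had the most Cma1 of the translocation tumours, at 10 counts, but no Cpa3, Tpsb2 or Fcer1a. Mcpt8, a protease of basophils, had 0.192, 0, 6.65, 35.0 and 0 CPM in translocation tumours 1 to 5, against 0 to 0.635 CPM across the Rosa26 tumours. Of the 6 other basophil genes listed, Itga2b, which platelets also express, had 46 and 39 counts in translocation tumours 3 and 4, Ccr3 1 and 10, Cd200r3 1 and 2, Ms4a3 0 and 3, Il4 1 and 0 and Prss34 none. With Mcpt8 included, the list summed to 13.4, 13.1, 8.64, 37.8 and 1.12 CPM in translocation tumours 1 to 5, against 15.3 CPM in Rosa26 tumour 1 and 2.25 to 3.67 CPM in the other 5 Rosa26 tumours. Mcpt2 had no count in any translocation tumour, against 11 and 5 counts in Rosa26 tumours 1 and 3 and at most 1 in the other 4.

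Of the 9 other proteases, 3 were tested between genotypes in edgeR and 1 was lower, against 1.56% of all genes. Tpsg1, the membrane-anchored tryptase gamma, had 2 counts in translocation tumour 3 and none in the other 4, against 5.66, 26.9, 24.5, 4.02, 9.11 and 16.1 CPM in Rosa26 tumours 1 to 6 and 4.29 CPM in muscle. Its groups did not overlap, a trait whose share over all genes is not given. Its adjusted p in edgeR was 0.00662, with 0.00182 for translocation tumours over muscle, where it was lower too. Between genotypes it also passed in DESeq2's Wald test and with each tumour left out, at adjusted p of 0.00305 to 0.0208 in edgeR. The Rosa26 tumours with most Tpsg1 included tumour 2, which had 5 counts in all of the 8 mast cell genes. Mcpt1 (2.76 ± 1.81, translocation over Rosa26, adjusted p = 0.367) and Gzmb, a granzyme also made by T and NK cells (1.18 ± 0.81, adjusted p = 0.394), did not pass in edgeR.

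Among 22 further mast cell receptors, regulators and granule genes, 16 were tested between genotypes and 0 passed in edgeR, with a median log2 fold change of 0.54 beside 0.07 over all genes tested. At an unadjusted p of 0.05 in edgeR 4 were higher and 1 was lower. DESeq2's Wald test called 3 higher and 1 lower, beside 2439 of all 17021 genes tested. Those with the smallest adjusted p were the transcription factor Tal1 (-2.70), the granule proteoglycan Srgn (2.43), the lipoxygenase Alox5 (2.50) and the granule membrane protein Cd63 (1.15), at adjusted p of 0.101 to 0.119 in edgeR, and these are the 4 that DESeq2 called. Srgn also passed in edgeR without translocation tumour 5. The receptors Mrgprb1 and Mrgprb2 failed the filter on low values. Mrgprb2, through which basic compounds activate connective tissue mast cells, had no count in any translocation tumour, 6 and 7 counts in Rosa26 tumours 1 and 3, none in the other 4, and 2 in muscle. Mrgprb1 had 2.60 and 0.898 CPM in Rosa26 tumours 1 and 3 and at most 2 counts in every other tumour. Kit, the receptor for stem cell factor on mast cells and melanocytes, was present in all tumours, at 2.11 to 16.8 CPM in translocation tumours and 3.67 to 12.8 CPM in Rosa26 tumours, with a log2 fold change of -0.12 ± 0.56. It did not follow the 8 genes, since its highest library was translocation tumour 5, which had no count for 7 of them. Il1rl1, the receptor for interleukin 33, ran from 13.1 to 815 CPM in translocation tumours and from 71.0 to 309 CPM in Rosa26 tumours.

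The signalling chain below the IgE receptor was measured in full, since its kinases and adaptors serve many immune cells. All 14 genes were tested between genotypes and 0 passed in edgeR, at a median log2 fold change of -0.77. The kinases Fyn (-0.77) and Syk (-0.997), the phospholipase Plcg2 (-1.20) and the adaptor Gab2 (-0.81) had the smallest adjusted p in edgeR, from 0.124 to 0.188. DESeq2 called Fyn alone of the 14, beside 2439 of all 17021 genes tested. Fyn, Syk, Plcg2 and Gab2 were also the genes with an unadjusted p under 0.05 in edgeR. Over muscle, 2 of the 14 were higher in translocation tumours and 6 in Rosa26 tumours, beside the 3.95% and 5.51% of all genes that were higher. The first count was 4 without translocation tumour 5, and the second was 3 without Rosa26 tumour 3 or 5. The receptor gamma chain Fcer1g, which macrophages share, was higher in both tumour groups, by a log2 fold change of 3.47 in translocation tumours (adjusted p = 0.0217 in edgeR) and of 2.92 in Rosa26 tumours (adjusted p = 0.0319 in edgeR), the Rosa26 call being lost without Rosa26 tumour 3, and macrophage markers passed too, 4 of 10 in translocation tumours and 3 of 10 in Rosa26 tumours.

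Of 9 genes of histamine breakdown, transport and reception, 5 were tested between genotypes and 0 passed in edgeR, the receptor Hrh2 having the smallest adjusted p (-1.77 ± 0.73, 0.163) and being the only one with an unadjusted p under 0.05 in edgeR. DESeq2 called 0 of the 5, and the transporter Slc29a4 passed as lower in edgeR without translocation tumour 5. Hnmt, which inactivates histamine by methylation, had 0.875 to 2.01 CPM in translocation tumours, against 0.175 to 3.70 CPM in Rosa26 tumours. Aoc1, the diamine oxidase that degrades histamine outside cells, reached 133 CPM in translocation tumour 5 but no more than 0.0959 CPM in the other 4, against no more than 0.289 CPM in any Rosa26 tumour. Slc18a2, a vesicular amine transporter that loads histamine into granules, was also highest there, at 42.8 CPM, where Hdc had 0.651 CPM.

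Of 12 factors that attract, grow or activate mast cells, 8 were tested and 0 passed in edgeR or in DESeq2. The chemokine Cx3cl1 (1.33) was the only one with an unadjusted p under 0.05 in edgeR, and it passed without Rosa26 tumour 4. Kitl, the stem cell factor that mast cells need to survive, had 7.71 to 20.8 CPM in translocation tumours, against 34.1, 6.31, 28.4, 7.52, 19.0 and 11.9 CPM in Rosa26 tumours 1 to 6 and 30.2 CPM in muscle. For Kitl, too, Rosa26 tumours 1 and 3 were the highest tumours, and the genotypes overlapped (log2 fold change -0.71 ± 0.48, edgeR adjusted p = 0.390). Il33, an alarmin that activates mast cells, had 18.9, 2.19, 1.01, 2.85 and 1.53 CPM in translocation tumours 1 to 5, against 23.6, 2.37, 23.7, 19.9, 1.07 and 11.4 CPM in Rosa26 tumours 1 to 6 and 1.07 CPM in muscle (log2 fold change -1.30 ± 0.93, edgeR adjusted p = 0.410). Il33 was thus high in Rosa26 tumour 4, which had 4 counts for the 8 genes together. The cytokine Tslp, whose adjusted p lay between those of Cx3cl1 and Kitl, went the other way from Kitl and Il33. Its log2 fold change was 1.39 ± 0.88 (edgeR adjusted p = 0.3465). Tslp had 0.0465 to 42.8 CPM in translocation tumours, against 2.45 to 15.4 CPM in Rosa26 tumours. In Rosa26 tumours 1 and 3 it had 6.81 and 5.31 CPM, so they were not the highest tumours for Tslp.

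Eosinophils are another granule-bearing white cell of inflamed tissue. The list of 7 eosinophil genes summed to 1.63, 15.8, 13.1, 21.8 and 1.44 CPM in translocation tumours 1 to 5, against 23.8, 7.26, 24.9, 4.90, 12.2 and 17.2 CPM in Rosa26 tumours 1 to 6 and 1.27 CPM in muscle. Rosa26 tumours 1 and 3 were the highest by this sum, and the genotypes overlapped. Over all tumours most counts came from the ribonuclease Ear2, with 599 of the 611 in Rosa26 tumour 3 but 145 of the 412 in Rosa26 tumour 1. Ear2 belongs to a family of similar copies among which reads may be split. It had 8, 6, 321, 401 and 10 counts in translocation tumours 1 to 5, against 145, 91, 599, 24, 308 and 336 in Rosa26 tumours 1 to 6 and 5 in muscle. Ccr3, Siglecf and Il5ra had 137, 74 and 43 counts in Rosa26 tumour 1, against 6, 4 and 2 in Rosa26 tumour 3. In the other tumours they had at most 15, 6 and 3. Prg2 was highest in translocation tumour 2, at 20 counts, against 13 and 0 in Rosa26 tumours 1 and 3. The eosinophil peroxidase Epx was at 0 in Rosa26 tumours 1 and 3, and Ear6 in every library.

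The genes with the most similar pattern were sought over the 11 tumours, with each genotype centred on its own mean of log2 CPM. Only Hdc passed the filter, so the measure describes Hdc alone. The highest Pearson r were 0.92 for Ttc19, 0.912 for Mbnl3 and 0.889 for Car2, and 5 of the first 10 genes were shared when Rosa26 tumour 1 was left out. With the mean of all 8 genes instead, a choice made after the data were seen, Clca3a1 came first at 0.903, followed by Pdk4 and the muscle enzyme Ampd1, both at 0.892, and the muscle genes Pvalb and Myh4 were among the first 10. Of these 10, 6 were shared when Rosa26 tumour 1 was left out, with Pvalb among them but not Ampd1 or Myh4. All these points share libraries and depth, and the muscle list was itself high in Rosa26 tumours 1 and 3, as given above.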

How the data were processed

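The authors deposited whole-number counts per Ensembl gene for 12 mouse RNA libraries, not normalized, from a stranded kit with ribosomal RNA depletion, per the labels' protocols. Tools listed in the submitters' processing notes, with no role or order, are STAR 2.7.5a, RSEM, featureCounts, cutadapt and DESeq2, on build mm10. Whether counting used strand, and how it handled multi-mapping reads, is not given in the sources used here. GENCODE M21, also on that build, gave symbols, positions and exon lengths, and 55450 of 55536 identifiers matched.

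Genotypes were compared with edgeR 4.0.16 in R 4.3.3 over 11 tumours (TMM scaling, filterByExpr with a minimum count of 10, robust quasi-likelihood tests, Benjamini-Hochberg adjustment at 0.05) and the muscle was added in a second, 12-library fit. Each of the 8 genes was also compared by a two-sided exact permutation test of log2 CPM (prior count 2). Levels in the text are CPM scaled by TMM over 12 libraries, and differences come from the tumours' own scaling. The edgeR steps were tested on simulated data. Alternatives were DESeq2 1.42.0 size factors and Wald test, no filter at all, at least 1 CPM in 5 libraries, libraries with like titles summed, a skeletal muscle covariate, each tumour left out, and, chosen after seeing the data, a prior count of 0.5, plain library totals, 3 libraries left out together, and all alternatives for the gene lists and, except leaving out Rosa26 tumour 1, for the 8 genes over muscle.

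The genes and lists were chosen with earlier results of these data known. The text names all 8 genes, up to 4 genes per mast cell list by adjusted p with any called gene, and the most similar genes by correlation. Other list genes given by library (Mcpt1, Mcpt2, Mcpt8, Prss34, Cd200r3, Mrgprb1, Mrgprb2, Kit, Il1rl1, Hnmt, Aoc1, Slc18a2, Adipoq, Plin4, Fabp4, Ear2, Ccr3, Siglecf, Il5ra, Prg2 and Epx) and the genes called over muscle were picked from the fixed lists after their values were seen. Lists of neutrophil, fibroblast, endothelial, macrophage and T cell markers were scored too: of their tested genes 0 of 5, 0 of 10, 2 of 10, 0 of 10 and 2 of 9 passed between genotypes in edgeR, beside 2.7% of all genes. Of the endothelial genes Egfl7 was higher and Erg lower in translocation tumours. Both T cell genes, Cd3e and Trac, were lower, at edgeR adjusted p of 0.0413 and 0.0498.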

Additional observations from a re-analysis of the deposited data

Results flagged for a closer look

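Each value here stood apart from the other libraries of its genotype by Dixon's gap test at its 95% critical value, 19 times among 37 gene-by-genotype groups of 19 genes. Chance flags about 1 in 20 groups, and groups in which all but 1 library are at 0 meet the rule with a single count, so a count of flags says little here.

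Of the 8 mast cell genes, the translocation tumours gave Cpa3 at 0.0959 CPM in tumour 1, Tpsab1 at 0.0959 CPM in tumour 1, Mcpt4 at 0.438 CPM in tumour 2 and Ms4a2 at 0.0518 CPM in tumour 4, each from 1 count, and Fcer1a at 0.288 CPM in tumour 1, from 3 counts. Hdc stood apart at 5.85 CPM in translocation tumour 1 (61 counts) and at 1.91 CPM in Rosa26 tumour 1 (33 counts).

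Among the other proteases, Mcpt1 stood apart at 77.0 CPM in translocation tumour 4 and at 11.9 CPM in Rosa26 tumour 1. Mcpt8 did so at 35.0 CPM in translocation tumour 4 and at 0.635 CPM in Rosa26 tumour 1, and Tpsg1 at 0.0811 CPM, from 2 counts, in translocation tumour 3. Translocation tumour 4 was thus the highest tumour for both a mucosal mast cell protease and a basophil protease while it had no Cpa3 count.

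Mrgprb1 stood apart at 2.60 CPM in Rosa26 tumour 1. Translocation tumour 5 stood apart for Kit at 16.8 CPM, for Slc18a2 at 42.8 CPM and for Aoc1 at 133 CPM, and Rosa26 tumour 6 for Slc18a2 at 2.16 CPM. Kitl stood apart at 20.8 CPM in translocation tumour 4 and Il33 at 18.9 CPM in translocation tumour 1.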

How the results depend on the processing

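None of the mast cell genes tested passed between genotypes in any alternative, but only the fit with no filter tested all 8, and the others tested 0 to 2. Against the 460 genes called between genotypes, the DESeq2 Wald test called 2439, summing libraries with like titles left 141 and a skeletal muscle covariate 284, and leaving out one tumour at a time gave 63 to 744, with values past 1.5 times without translocation tumour 1 (112) or 5 (744) and without Rosa26 tumour 3 (63), 4 (262), 5 (123) or 6 (75). Leaving out translocation tumours 2 and 5 and Rosa26 tumour 4 together, chosen after seeing the data, gave 619. Over muscle the Wald test called 5013 genes for translocation tumours and 6045 for Rosa26 tumours, and leaving out one tumour gave 2079 to 5136 and 2523 to 6066, the highest values both without translocation tumour 5. The causes were not tested.

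The log2 fold change of Hdc, 1.24, ran from -0.825 without translocation tumour 1 to 1.96 without Rosa26 tumour 1. Over muscle, with one tumour left out, Hdc in translocation tumours ran from -1.72 to 0.642, and Cma1 and Fcer1a in Rosa26 tumours from -0.883 to 0.428 and from -0.552 to 0.393. Fcer1a in Rosa26 tumours was -0.006 with DESeq2 size factors and -0.073 in the Wald test. Of 120 recomputed differences in mean log2 CPM, 110 kept direction and side of the threshold, 3 (Tpsab1 and Ms4a2) passed it and 7 changed sign. Those were Hdc, from a main value of 0.084, at -0.243 with a prior count of 0.5 and from -0.82 to 0.634 with one tumour left out, and Cma1, from -0.833 to 0.158 with one tumour left out. No paired analysis was possible because the labels give no replicate numbers, the titles of the 2 tumour genotypes share no number, and with muscle there is 1 such pair. Depth limits what counts of 0 show, most in translocation tumour 2, where they allow up to 1.31 CPM.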
